A study of Mus musculus with 8 samples.

Results

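The genes described here are 10 components of the NRF2 and glutathione antioxidant system: Nfe2l2, Keap1, Gclc, Gclm, Nqo1, Hmox1, Txnrd1, Srxn1, Gsr and G6pdx. They were picked by name, with earlier results of these data known. The choice was made out of 47434 genes whose counts were obtained by adding up the transcripts of each gene. All 10 passed the filter on low counts and were among the 15840 genes tested. RNA came from Hepa 1-6, an established mouse hepatoma line. One group was labelled G9a knockout (4 libraries) and the other WT, or wild type (4 libraries), with liver as the tissue and liver cancer cell as the cell type in both. G9a, encoded by Ehmt2, is a histone methyltransferase that marks lysine 9 of histone H3. The labels name no treatment and do not say how the knockout was made, whether it is 1 clone, or whether replicate libraries stand for separate cultures. The p-values therefore measure the spread between these libraries, which may be technical.

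NRF2, the protein of Nfe2l2, is a transcription factor that is held at a low level by KEAP1, an adaptor that delivers it to a CUL3 ubiquitin ligase for degradation. Oxidants and electrophiles modify cysteines of KEAP1, NRF2 then accumulates, pairs with small MAF proteins and binds antioxidant response elements near genes of glutathione synthesis, thioredoxin recycling, NADPH supply and detoxification. Because NRF2 is controlled largely through the stability of the protein, the RNA of Nfe2l2 is no measure of its activity. In the liver the system is known for handling reactive drug metabolites, and some liver tumors carry mutations that stabilize NRF2.

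Of the promoter windows in RefSeq (GRCm38.p6; 250 bases before to 50 after a gene start), 9 belonged to 7 of these genes: Nfe2l2, Keap1, Gclm, Nqo1, Srxn1, G6pdx and, with 3 windows, Txnrd1. Gclc, Hmox1 and Gsr had none in the table. Windows of 3 of the genes that were lower in the knockout and hold the core of the antioxidant response element are shown, with matches in capitals. Txnrd1, which also fell and holds the core, is not shown. Whether the matches bear on the falls was not tested, and Nfe2l2 and Srxn1 lie among neighbors that were mostly lower, as described further on. The core was searched as TGACNNNGC and, added after the windows had been seen, as TGAGNNNGC, on both strands, so that a match to the other strand reads as its reverse complement.

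Nfe2l2 (chr2:75704614-75704913, minus strand): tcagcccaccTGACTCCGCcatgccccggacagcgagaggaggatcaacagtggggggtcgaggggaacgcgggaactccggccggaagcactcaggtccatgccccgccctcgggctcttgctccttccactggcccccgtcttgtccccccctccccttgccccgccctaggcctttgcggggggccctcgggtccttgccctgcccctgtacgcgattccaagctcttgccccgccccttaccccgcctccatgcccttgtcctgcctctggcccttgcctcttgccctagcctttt

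Srxn1 (chr2:152105274-152105573, plus strand): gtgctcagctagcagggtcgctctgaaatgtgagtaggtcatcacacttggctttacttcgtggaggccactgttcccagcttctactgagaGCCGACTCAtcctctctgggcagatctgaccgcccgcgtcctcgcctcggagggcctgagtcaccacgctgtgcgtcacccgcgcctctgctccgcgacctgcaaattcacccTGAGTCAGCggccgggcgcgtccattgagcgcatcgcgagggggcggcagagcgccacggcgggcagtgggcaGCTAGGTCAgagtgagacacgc

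G6pdx (chrX:74428831-74429130, minus strand): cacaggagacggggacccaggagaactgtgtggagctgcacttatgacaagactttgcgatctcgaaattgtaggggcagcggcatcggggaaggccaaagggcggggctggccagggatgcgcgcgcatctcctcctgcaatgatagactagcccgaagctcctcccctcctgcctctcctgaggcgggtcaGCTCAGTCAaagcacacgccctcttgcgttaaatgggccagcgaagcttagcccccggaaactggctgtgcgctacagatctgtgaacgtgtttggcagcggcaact

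Nfe2l2 held a TGACNNNGC match (TGACTCCGC) that began 240 bases before the gene start, and G6pdx held one (GCTCAGTCA) 57 bases before it. Srxn1 had 3 matches. Of these, GCCGACTCA began 158 bases and TGAGTCAGC 45 bases before the start, both of the TGAGNNNGC form, and GCTAGGTCA, of the TGACNNNGC form, lay 29 bases after it. TGAGTCAGC overlaps a match to the AP-1 site TGANTCA, which is bound by FOS and JUN proteins. Gclm (GCACCGTCA, 134 bases before the start) and 1 of the 3 Txnrd1 windows (GCTTTGTCA, 92 bases before) also held a match, whereas the windows of Keap1 and Nqo1 held none. Among all 32851 windows, 12.4% held TGACNNNGC and 27.8% held either form. A match is only a match of letters in this window, and elements farther away were not searched.

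Library totals were between 58256100 and 75025236 counts, and a member had between 1681 and 27742 counts in a library. Ehmt2 RNA was lower in the knockout, at 118 ± 1.55 against 314 ± 21.3 CPM (SD, n = 4 per group), with a ratio of 0.376 to the wild type. Part of this RNA thus remained, and RNA counts do not show whether the protein was lost. CPM stands for counts-per-million, here after TMM normalization. Of 12 hepatocyte markers 5 (Alb, Ttr, Hnf4a, Serpina1a and Tat) had no count in any library, so the defining markers of mature liver cells were absent. The list summed to 1346 to 1505 CPM in the knockout and 1176 to 1264 CPM in the wild type, mostly Krt8 and Krt18. Afp, a fetal liver marker, was at 118 to 145 against 5.09 to 6.46 CPM, and of the 5 hepatocyte markers tested 3 were higher and 1 lower. Macrophage markers (6 genes, Adgre1 and Itgam at 0 counts) summed to 8.11 to 9.38 CPM in the knockout and 5.45 to 9.6 CPM in the wild type. Endothelial markers (4 genes) summed to 4.66 to 5.82 and 2.33 to 3.51 CPM. Fibroblast markers summed to 424 to 454 and 107 to 117 CPM over 7 genes, almost all of it Col3a1, with Lum at 0 counts; 3 of the 5 tested were higher in the knockout. The part of these differences in the results was not tested. In bulk RNA, fewer cells of a type and less RNA per cell cannot be told apart.

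The antioxidant genes were mostly lower in the knockout, by modest amounts. Of the 10, 7 fell (Nfe2l2, Gclc, Gsr, G6pdx, Txnrd1, Srxn1 and Nqo1), 1 rose (Hmox1), and Keap1 and Gclm did not pass the test (edgeR, adjusted p under 0.05). The called changes were between 1.14-fold and 1.67-fold. Calls were common in this comparison: 23.6% of all tested genes were called lower and 23.6% higher. All 10 genes average 25 CPM or more, and among the 6667 tested genes of that level the shares were 38% and 22.2%. The median log2 fold change of the 10 genes was -0.39, against 0.0037 for all tested genes. Since the genes were chosen with earlier results known, neither the shares nor this median test the set. The 7 genes that fell and Hmox1 had no overlap between knockout and wild-type libraries, as was the case for 43.9% of tested genes. That share is over genes of all levels, and it was not computed for those that average 25 CPM or more. With library sizes alone as the scaling, 4543 of all tested genes were higher and 2742 lower, in place of 3742 and 3734.

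**Figure D1:**
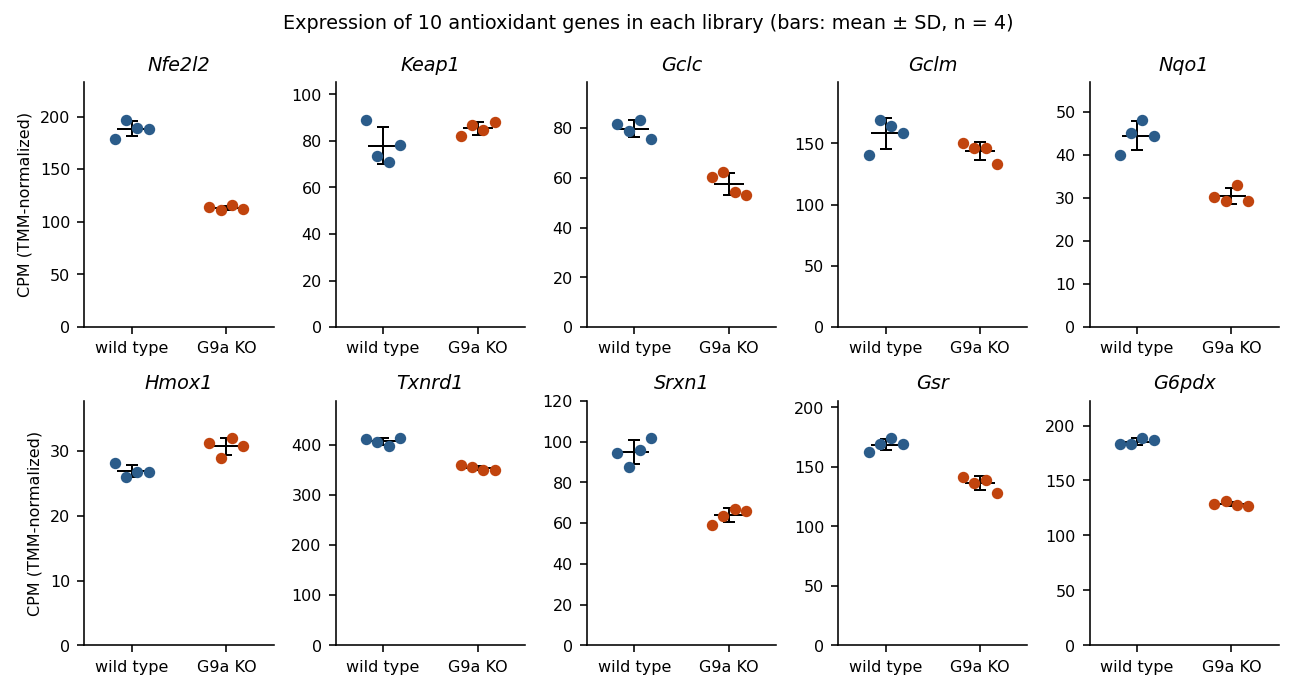
TMM-normalized CPM of each antioxidant gene (vertical axis, from 0) in the 4 wild-type (blue) and 4 knockout (red) libraries, with mean and SD as black bars. The groups are apart for 8 genes and overlap for Keap1 and Gclm.

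The gene of the transcription factor itself had the largest log2 fold change of the 10. Nfe2l2 (ENSMUSG00000015839, chromosome 2, 75675513 to 75704641, GRCm38) was at 114.0, 110.8, 115.7 and 111.7 CPM in the knockout libraries and at 179.1, 197.0, 188.7 and 188.6 CPM in the wild type. The knockout libraries lay within 5 CPM of each other and far below the lowest wild-type library. The log2 fold change, knockout minus wild type, reached -0.74 ± 0.04 (SE from 4 libraries per group; edgeR, adjusted p = 2.7e-08), that is 1.67-fold lower. Nearly all of its counts (98.6% to 99.3% in a library) were on the coding transcript of 5 exons, Nfe2l2-201. The fall shrank to -0.21 (edgeR, adjusted p = 0.00181) when the shift of its chromosomal neighbors, described further on, was taken out. This p-value leaves out the spread among those neighbors, whose quartiles were -0.7 and -0.29.

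Keap1 (ENSMUSG00000003308, chromosome 9, 21229730 to 21239361), the inhibitor, did not pass the test. Its levels were 82.1, 86.7, 84.5 and 88.1 CPM in the knockout and 89.1, 73.7, 71.1 and 78.1 CPM in the wild type. The first wild-type library was above every knockout library and the other 3 were below. The log2 fold change was 0.13 ± 0.07 (edgeR, adjusted p = 0.126), and without wild-type replicate 1 it was 0.20 (adjusted p = 0.00593). It was also called higher with library sizes alone (0.21, adjusted p = 0.022), with upper quartile scaling (0.19, adjusted p = 0.0334) and when a mean of 5 CPM was required (0.17, adjusted p = 0.0394). Keap1 was the gene among the 10 whose counts were spread over several coding transcripts: Keap1-205 held 62.1% to 77.5% of them, Keap1-202 15.5% to 24.7% and Keap1-201 4.06% to 14.7% in a library. The shares of Keap1-205 overlapped between knockout (68.6% ± 5.65) and wild type (72.2% ± 4.58). Per transcript length, the level of Keap1 relative to Nfe2l2 was 0.564, 0.606, 0.562 and 0.616 in the knockout libraries and 0.394, 0.297, 0.298 and 0.327 in the wild type. This ratio was thus higher in each knockout library.

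Glutamate-cysteine ligase catalyzes the first and rate-limiting step of glutathione synthesis; the gene of its catalytic subunit fell, and that of its modifier subunit did not pass the test. Gclc (ENSMUSG00000032350, chromosome 9, 77754535 to 77794485) encodes the catalytic subunit. It was at 60.3, 62.3, 54.2 and 53.1 CPM in the knockout and at 81.5, 78.7, 83.4 and 75.5 CPM in the wild type. All knockout libraries were below all wild-type libraries, and the gene fell by 28% (log2 fold change -0.47 ± 0.06; edgeR, adjusted p = 2.8e-05). Gclm (ENSMUSG00000028124, chromosome 3, 122245557 to 122270732) encodes the modifier subunit, which raises the efficiency of the enzyme. Its values of 150.0, 145.9, 146.5 and 133.0 CPM in the knockout overlapped with 140.6, 169.4, 164.3 and 158.2 CPM in the wild type, where the first library was lowest. The log2 fold change of -0.14 ± 0.06 did not pass (edgeR, adjusted p = 0.0837), and did without wild-type replicate 1 (-0.19, adjusted p = 0.0074). Per transcript length, the ratio of Gclm to Gclc was 1.64, 1.52, 1.85 and 1.67 in the knockout and 1.14, 1.42, 1.34 and 1.44 in the wild type. It was higher in every knockout library, although whether the subunits changed unequally was not tested.

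The genes for recycling of oxidized glutathione and for its NADPH both fell. Gsr (ENSMUSG00000031584, chromosome 8, 33652523 to 33698163), glutathione reductase, was at 141.8, 136.7, 138.8 and 128.2 CPM in the knockout and 162.6, 169.1, 174.3 and 168.8 CPM in the wild type. The groups did not overlap, and the gene fell by 19.2% (log2 fold change -0.31 ± 0.05; edgeR, adjusted p = 0.000104). G6pdx (ENSMUSG00000031400, chromosome X, 74409483 to 74429194) encodes glucose-6-phosphate dehydrogenase, which supplies the NADPH that glutathione reductase uses. Its levels of 128.7, 130.9, 127.3 and 126.5 CPM in the knockout were below 182.9, 183.0, 188.7 and 187.0 CPM in the wild type. The libraries of a group differed by less than 6 CPM, and the gene fell by 30.8% (log2 fold change -0.53 ± 0.04; edgeR, adjusted p = 1.95e-07). Ikbkg lies across G6pdx on the opposite strand and went the other way, with 48.4 against 41.7 CPM on average. The use of strand in counting is not given in the sources used here, so reads where these genes overlap could have gone to either. G6pd2, a related copy, had at most 0.0336 CPM in a library.

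In the thioredoxin branch, Txnrd1 (ENSMUSG00000020250, chromosome 10, 82833951 to 82897712), the cytosolic thioredoxin reductase, had the highest level of the 10 per transcript length as well as in CPM. Levels of 360.6, 355.7, 351.1 and 351.4 CPM in the knockout were below those of 412.9, 405.8, 399.0 and 414.6 CPM in the wild type. The fall was the smallest of those called, at 13.1% (log2 fold change -0.20 ± 0.04; edgeR, adjusted p = 0.000523). Srxn1 (ENSMUSG00000032802, chromosome 2, 152105516 to 152111376), sulfiredoxin, repairs overoxidized peroxiredoxins. It was at 59.0, 63.5, 67.0 and 65.8 CPM in the knockout and 94.5, 87.7, 95.9 and 101.8 CPM in the wild type, without overlap. It fell by 32.8% (log2 fold change -0.57 ± 0.06; edgeR, adjusted p = 3.12e-06), but stood at 0.05 (adjusted p = 0.548) with the shift of its neighbors taken out.

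The classical inducible enzymes Nqo1 and Hmox1 moved in opposite directions. Nqo1 (ENSMUSG00000003849, chromosome 8, 107388225 to 107403206), a quinone reductase, was at 30.2, 29.4, 33.1 and 29.3 CPM in the knockout and at 40.1, 45.1, 48.2 and 44.4 CPM in the wild type. The groups did not overlap, and the gene fell by 31.4% (log2 fold change -0.54 ± 0.07; edgeR, adjusted p = 1.81e-05). Hmox1 (ENSMUSG00000005413, chromosome 8, 75093621 to 75100589), heme oxygenase 1, splits heme into biliverdin, iron and carbon monoxide. BACH1 is known to repress it. Its levels of 31.2, 28.9, 32.0 and 30.8 CPM in the knockout were just above those of 28.2, 26, 26.8 and 26.7 CPM in the wild type. The lowest knockout library exceeded the highest wild-type library by less than 1 CPM. The rise was small (log2 fold change 0.19 ± 0.06; edgeR, adjusted p = 0.0158). It passed with every library left out in turn (0.17 to 0.22), though mostly close to the threshold (edgeR, adjusted p between 0.0078 and 0.0458).

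Nfe2l2 and Srxn1 lie in regions of chromosome 2 where most genes were lower in the knockout. To describe this, each gene was set beside its 50 nearest tested neighbors, 25 on each side, with a mean of at least 5 CPM. Around Nfe2l2, 39 of 50 neighbors were called lower and 3 higher, and their median log2 fold change was -0.53; the value of Nfe2l2 was below that of 40 of them. Around Srxn1, 43 were called lower and 1 higher, with a median of -0.62. Srxn1 stood in the middle of them, with 26 neighbors below and 24 above it. Between the 2 members on the chromosome lie Cat, Chac1 and Myef2, whose neighbors had medians of -0.5, -0.69 and -0.55. Whether all this is 1 stretch was not tested, so the falls of Nfe2l2 and Srxn1 may not be separate. The other 5 members that fell had neighbors with medians nearer 0, between -0.13 (Nqo1) and 0.04 (Gclc). Around Nqo1, however, 22 of 50 neighbors were called lower and 6 higher. G6pdx was lower than all 50 of its neighbors, Gclc lower than 49 and Nqo1 lower than 48. Gsr was lower than 44 of its neighbors and Txnrd1 lower than 37, with 13 neighbors below Txnrd1. With the median of the neighbors entered as an offset, G6pdx, Gclc and Nqo1 stayed at -0.47, -0.52 and -0.42. Gsr stood at -0.26 and Txnrd1 at -0.15, and all 5 were called (edgeR, adjusted p between 8.35e-07 and 0.00534). The offset was entered as a fixed value, so p-values with the shift taken out, here and elsewhere, leave out the spread among neighbors. The cause of the regional shifts was not tested.

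**Figure D2:**
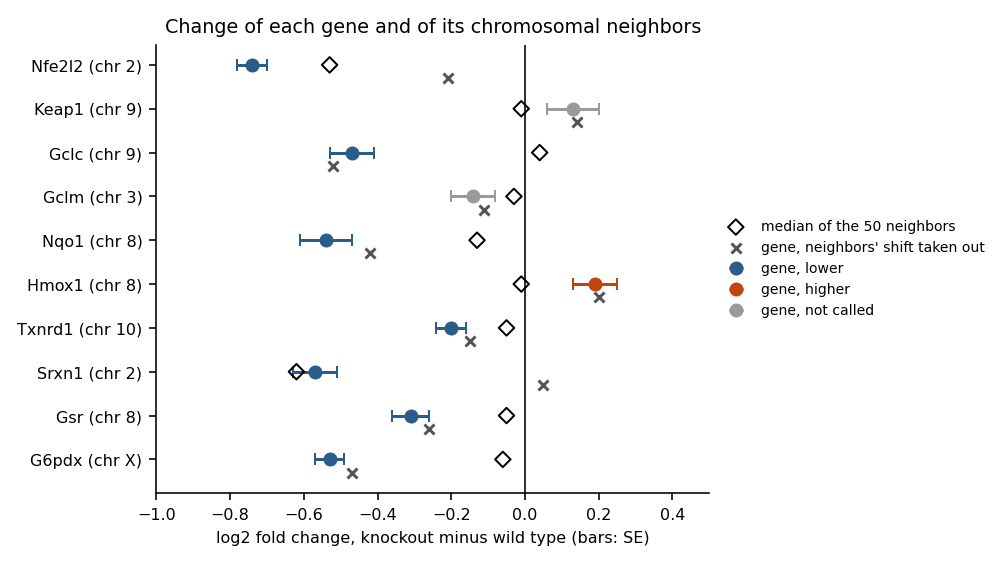
Log2 fold change of each gene (horizontal axis, knockout minus wild type; circles with SE), the median of its 50 neighbors (diamonds) and the value of the gene with that shift taken out (crosses). Diamonds are near 0 except for Nfe2l2 and Srxn1, at -0.53 and -0.62.

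**Figure D3:**
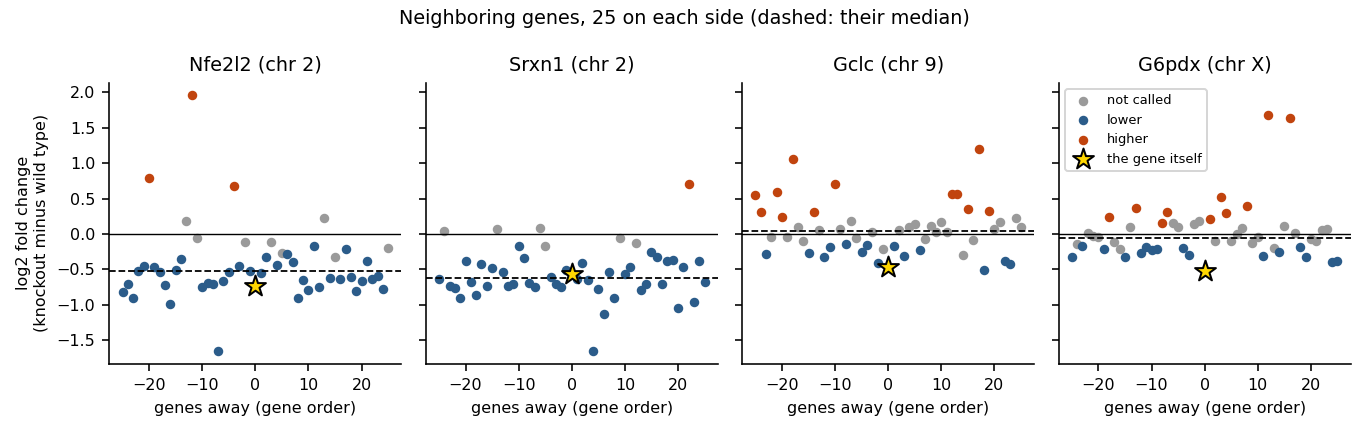
Log2 fold changes (vertical axis) of the 25 tested genes on each side (horizontal axis, number of genes away) of Nfe2l2, Srxn1, Gclc and G6pdx, colored by call; the star is the gene and the dashed line the median of the neighbors. The Srxn1 star lies close to the dashed line, whereas those of Gclc and G6pdx lie below nearly all neighbors.

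Levels were compared between genes per transcript length, as TPM (transcripts-per-million values), a scale without TMM. In the wild type the order of the TPM levels was Txnrd1 (238 ± 5.35), Nfe2l2 (149 ± 5.22), G6pdx (137 ± 0.825), Gsr (122 ± 2.64), Srxn1 (65.7 ± 3.8), Gclm (60.2 ± 4.78), Nqo1 (55.5 ± 3.76), Keap1 (48.8 ± 5.39), Gclc (45.2 ± 2.06) and Hmox1 (33.3 ± 1.33; SD, n = 4). The first 4 and Hmox1 did not overlap with a neighbor in this order; from Srxn1 to Gclc each gene overlapped with the next. In the knockout, Nfe2l2 (93.9 ± 2.03 TPM) had rank 4, after Gsr (104 ± 5.71) and G6pdx (99.6 ± 4.3), whose ranges overlapped. Hmox1 (39.9 ± 0.734 TPM) was then above Gclc (34.3 ± 3.65) and overlapped with Nqo1 (40.0 ± 1.78). The TPM also depend on how reads were shared among the transcripts of a gene.

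**Figure D4:**
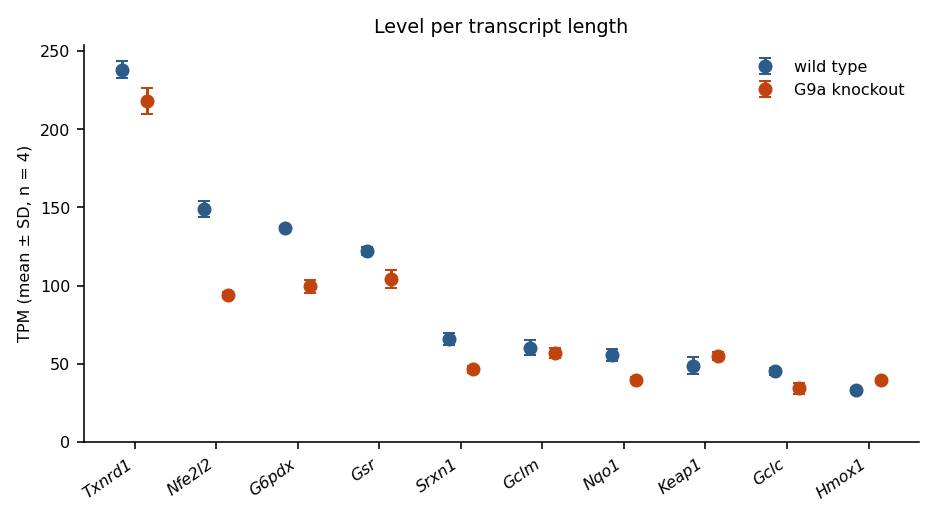
TPM of the 10 genes (vertical axis, from 0; mean and SD of 4 libraries) in wild type (blue) and knockout (red), ordered by the wild-type mean. Nfe2l2 has rank 2 in the wild type and rank 4 in the knockout, and Hmox1 and Keap1 are the genes with a higher mean in the knockout.

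Apart from Ikbkg, annotated genes that overlap a member had low counts. The antisense gene Gm16754 at Keap1 had 1.51 against 1.28 CPM on average, and Gm17494, which runs against Gclm, had 11.9 against 13.0 CPM (knockout against wild type). Gm24996, Gm6061 and Gm24727 had at most 0.353 CPM in a library. The 3 genes that overlap Txnrd1 (Gm38560, Gm47073 and Eid3) were not among the 47434 genes with counts, so no reads could be assigned to them. Among 8869 other genes that average 10 CPM or more, the 5 whose log2 CPM over the 8 libraries was most like that of Nfe2l2 were Actg1, Top1, Myef2, Epc2 and Cdca7 (Pearson r between 0.9982 and 0.9991). All but Actg1 lie on chromosome 2. The 8 points form 2 groups by genotype, so that r mainly reflects the difference between these.

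The wider pathway was covered by 8 lists with 138 genes, also chosen with earlier results known. In all, 125 were tested: 43 rose, 41 fell and 41 did not pass. Of the 73 that average 25 CPM or more, 31 (42.5%) fell and 15 (20.5%) rose, beside 38% and 22.2% of all such genes. Of the 52 weaker ones, 10 (19.2%) fell and 28 (53.8%) rose, beside 13.1% and 24.7% of all tested genes under 25 CPM. At 25 CPM or more, 3 of 10 NRF2 regulators fell and 2 rose. These counts were 8 and 2 of 13 for glutathione precursors and use, and 2 and 2 of 11 for thioredoxin. NADPH supply had 9 and 3 of 17, heme and iron 5 and 2 of 12, and S-transferases 1 and 1 of 3. Detoxification had 0 and 3 of 4, and superoxide and catalase 3 and 0 of 3. Counts of whole lists, given below, stand beside 23.6% of all tested genes lower and 23.6% higher.

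**Figure D5:**
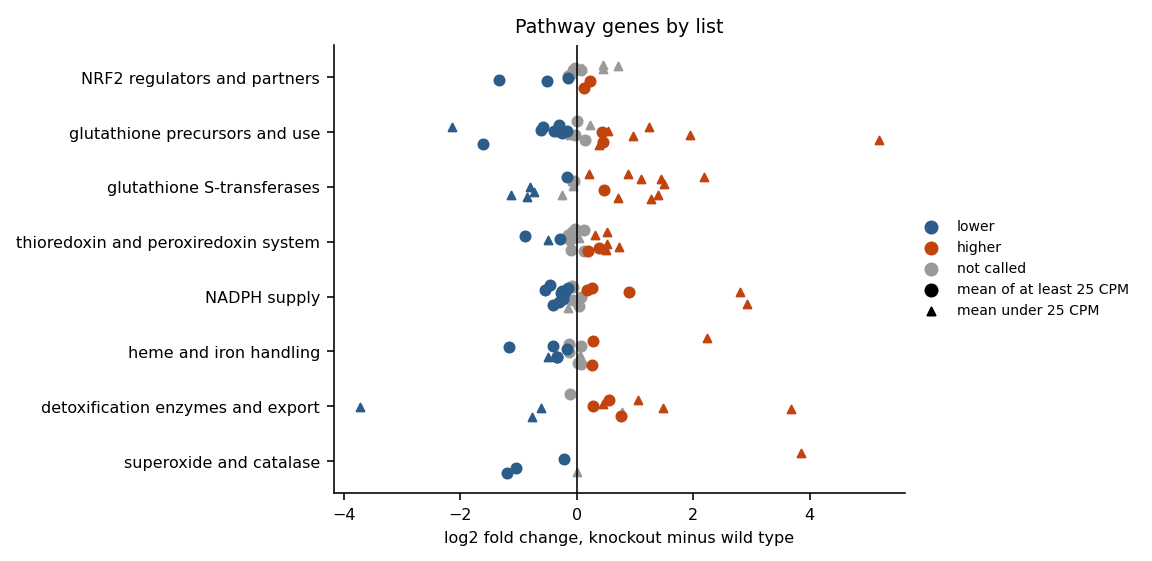
Log2 fold change (horizontal axis, knockout minus wild type) of each tested gene of the 8 pathway lists, colored by call; circles average 25 CPM or more and triangles less. Points to the right of 0 make up 10 of 19 glutathione S-transferases and 8 of 12 detoxification genes, and most points of these lists are triangles.

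Among 14 regulators and partners of NRF2, 3 fell and 2 rose (median log2 fold change 0.03). Bach1, a repressor that competes for antioxidant response elements, fell from 44.9 ± 2.84 to 17.9 ± 1.63 CPM (log2 fold change -1.33). It lies on chromosome 16 among neighbors with a median of -0.96, and stood at -0.37 (edgeR, adjusted p = 0.00132) with this taken out. The small MAF gene Maff fell from 68.4 ± 3.89 to 48.2 ± 2.63 CPM. Nfe2l1, a related factor that controls proteasome genes, rose from 217 ± 17.5 to 255 ± 13.8 CPM. Sqstm1, whose protein p62 sequesters KEAP1, was at 424 ± 16.9 against 468 ± 36.2 CPM and only just passed (edgeR, adjusted p = 0.0457). Its call was lost under 13 of 18 alternatives. The other gene that rose, named here after its value was seen, was Rbx1, a subunit of the CUL3 ligase, with 122 against 111 CPM (edgeR, adjusted p = 0.0482). The count of 2 that rose was 1 without knockout replicate 1, 3 or 4 and without wild-type replicate 2, 3 or 4, each left out in turn, and 1 with the replicate number as a block.

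Of 22 tested genes for precursors and use of glutathione, 9 fell and 8 rose (median -0.01). The cystine importer gene Slc7a11 fell by 1.60 on the log2 scale, and Chac1, which degrades glutathione, by 2.14. Chac1 lies on chromosome 2 among neighbors with a median of -0.69, and stood at -1.44 (edgeR, adjusted p = 3.21e-07) with this taken out. Glutathione synthetase, Gss, went from 55.9 ± 1.5 to 36.4 ± 0.871 CPM, and was at -0.02 in place of -0.62 on the log2 scale with the shift of its neighbors on the same chromosome taken out. Glrx, a glutaredoxin that removes glutathione from proteins, rose from 12.9 ± 0.552 to 25.4 ± 1.7 CPM.

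Glutathione S-transferases, which couple glutathione to electrophiles, rose in 10 of 19 cases and fell in 5 (median 0.22). Gstz1 rose from 7.01 ± 1.2 to 19.9 ± 0.965 CPM, Gstm2 from 17.1 ± 1.42 to 31.4 ± 1.69, Gstm7 from 2.67 ± 0.322 to 7.27 ± 0.568 and Mgst2 from 9.5 ± 1.52 to 20.3 ± 1.27 CPM. Gstz1 lies on chromosome 12 among neighbors with a median of 0.47. With this taken out, it stood at 1.03 in place of 1.5 on the log2 scale (edgeR, adjusted p = 8.25e-06). Members of the Gstm family are similar in sequence, so their reads may be shared. Of the 19, 3 averaged 25 CPM or more, and 1 fell when a mean of 5 CPM was required, since fewer of them are then tested.

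In the thioredoxin and peroxiredoxin system, 7 of 18 genes rose and 3 fell (median 0.08). Sesn2, a stress-induced sestrin, fell from 39.0 ± 2.64 to 21.1 ± 3.35 CPM, whereas Sesn3 rose from 16 ± 0.956 to 26.4 ± 2.92 CPM. Msrb3, a methionine sulfoxide reductase, and Txnip, which binds thioredoxin, rose by 0.52 ± 0.06 and 0.39 ± 0.05 on the log2 scale. Without wild-type replicate 1, 5 genes of the list were called lower.

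Of 20 genes of NADPH supply, 9 fell and 5 rose (median -0.11), or 3 rose when a mean of 5 CPM was required. Pgd, a later step than G6pdx in the pentose phosphate pathway that also yields NADPH, went from 363 ± 3.63 to 266 ± 10.1 CPM (log2 fold change -0.45). Tkt, transketolase, went from 419 ± 0.202 to 347 ± 7.82 CPM and Idh2, the mitochondrial isocitrate dehydrogenase, from 277 ± 11.3 to 210 ± 9.27 CPM. H6pd, which makes NADPH in the endoplasmic reticulum, rose from 31.8 ± 1.84 to 59.3 ± 3.24 CPM.

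Of 15 heme and iron genes, 6 fell and 3 rose (median -0.13). With neighbors' shifts taken out, 7 were called higher. Abcb6, a porphyrin transporter, fell from 44.3 ± 1.9 to 19.7 ± 3.91 CPM, the ferritin light chain gene Ftl1 from 1411 ± 56.3 to 1126 ± 46.9 CPM and Aco1, an iron-sensing RNA-binding protein, by 0.40 on the log2 scale. Fech, which inserts iron into heme, rose by 0.27 ± 0.05.

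Of 12 tested genes of detoxification and export, 7 rose and 3 fell (median 0.51). Adh7, an alcohol dehydrogenase, rose from 12.9 ± 0.785 to 36.2 ± 0.705 CPM and Nqo2, the relative of Nqo1, from 19.3 ± 1.86 to 32.9 ± 1.27 CPM. Ugdh, which makes the sugar donor for glucuronidation, rose by 0.55 ± 0.05, and by 0.16 (edgeR, adjusted p = 0.0256) with the shift of its neighbors taken out. The carbonyl reductase gene Cbr3 fell from 5.55 ± 0.346 to 0.421 ± 0.189 CPM, and stood at -2.68 on the log2 scale, in place of -3.72, without the median of -1.04 of its chromosome 16 neighbors. When a mean of 5 CPM was required, 1 gene of the list was called lower.

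Of the superoxide dismutases and catalase, 3 genes fell, 1 rose and Ccs, the copper chaperone of SOD1, named here after its value was seen, did not pass (12.9 against 12.8 CPM; median of the list -0.22). Cat went from 50.5 ± 1.75 to 21.9 ± 0.982 CPM, Sod1, the cytosolic enzyme, from 270.2 ± 16.3 to 132 ± 6.85 and Sod2, the mitochondrial one, from 85.4 ± 2.77 to 73.1 ± 2.46 CPM. Sod3, the secreted enzyme, was weak and rose from 0.437 ± 0.179 to 6.3 ± 0.506 CPM; it was not tested where a mean of 5 CPM was required. Taking out the shift of the neighbors left Cat, on chromosome 2, at -0.70 and Sod1, on chromosome 16, at -0.04 (edgeR, adjusted p = 0.631). Sod3, on chromosome 5 among neighbors with a median of 0.36, was then at 3.49 in place of 3.85.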

How the data were processed

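RNA of 8 libraries was made with poly-A selection and a SMARTer mRNA kit, per the labels' protocols. FastQC, Trimmomatic, HISAT2 and GRCm38.p6 are named, with no version or role, in the submitters' processing notes. Counting tool, strand setting and annotation release: not given in the sources used here. Each transcript of the table that the authors deposited has raw counts, judged from values that are whole numbers with unequal library totals. Of 115220 transcripts, 114332 (99.23%) matched GENCODE mouse release 21; the other 888 held 0.148% to 0.17% of a library's counts and were left out. Counts were summed per gene. TPM were computed from transcript counts and annotated transcript lengths.

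Knockout and wild type were compared with edgeR 4.0.16 (quasi-likelihood F test, TMM, filterByExpr, genotype as the only term, two-sided, Benjamini-Hochberg over all tested genes). A gene "rose" or "fell" at an adjusted p under 0.05; SE was taken as |log2 fold change|/√F. DESeq2 1.42.0, limma-voom (limma 3.58.1), other scalings and filters, coding transcripts only, a replicate block, each library left out and the shift of chromosomal neighbors were alternatives. Tested on simulated data (15512 genes, 200 changed), the fit found 88.1% of genes changed 1.5-fold and 100% of those changed 4-fold, with 14 false calls among 203. In the data far more genes were called (7476), and most called members changed less than 1.5-fold, a size that was not simulated. Named genes are the 10 members, up to 4 called genes per list with the lowest p, marker genes and Ehmt2. Genes overlapping a member, G6pd2 as a copy of G6pdx and the 5 genes most like Nfe2l2 are named too. Rbx1 and Ccs, outside this rule, were named after their values were seen, to complete small counts. The members and lists were chosen with earlier results of these data known.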

Additional observations from a re-analysis of the deposited data

Results flagged for a closer look

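In groups of 4 libraries, a library was singled out when its gap to the nearest other exceeded Dixon's critical share of the range of the group, which chance gives in about 1 of 20 groups; this was so in 4 of the 84 groups examined. None of them concerned the 10 antioxidant genes. Chac1 was at 3.35 CPM in knockout replicate 1 and at 4.39 to 4.55 CPM in the other knockout libraries. Gstm2 was at 28.9 CPM in knockout replicate 2, against 32.1 to 32.4 CPM. Gstm7 was at 2.19 CPM in wild-type replicate 4, against 2.77 to 2.86 CPM, and Ugdh at 88.7 CPM in wild-type replicate 1, against 97.2 to 98.6 CPM.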

How the results depend on the processing

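Of 180 values of the 10 genes under 18 alternatives, 174 kept their direction and their side of the threshold. Srxn1 turned to 0.05 with its neighbors' shift taken out. The number of members that rose was 2 with library sizes alone, upper quartile scaling and at least 5 CPM, and 1 to 2 with a library left out (2 without wild-type replicate 1), as Keap1 was then called. Of 342 counts, 323 were within 1.5 times the main one. NRF2 regulators that rose were 1 without a filter, with the replicate block and with neighbors' shifts out, and 1 to 2 with a library left out. With at least 5 CPM, 1 glutathione S-transferase and 1 detoxification gene fell, and 3 NADPH genes and 0 superoxide and catalase genes rose, since fewer weak genes are tested. Heme and iron genes that rose were 7 with neighbors' shifts out, and 3 to 5 thioredoxin genes fell with a library left out. Where no reason is given, the cause was not tested. Under the replicate block 7255 genes were called in place of 7476. The labels do not say whether equal numbers pair the libraries, and 4 pairs are too few to decide it. Same-numbered deviations correlated between -0.284 and 0.384, and 2 of 4 knockout libraries correlated best with their own number.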
